A study of Mus musculus with 4 samples.

Results

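Malat1, Neat1, Miat and Snhg11 are 4 long noncoding RNAs that are retained in the nucleus, and they were followed here across regions of the mouse posterior eye. They were found by gene symbol among the 32285 genes of the matrices, of which 17463 had at least 1 unique molecular identifier (UMI, the tag that marks 1 captured molecule), and each symbol matched 1 gene. The eyes came from C57BL/6J mice and were frozen fresh, embedded, sectioned and placed on 4 Visium capture frames, each a grid of barcoded spots that can hold several cells. The study concerns Wif1, a secreted Wnt inhibitor, delivered by AAV2/2 (CMV-Wif1-HA-IRES-GFP or CMV-Wif1-HA, with CMV-IRES-GFP as its control), with Ctrl eyes and eyes at 2 and 4 weeks. All 4 frames carry 1 treatment label, Naive+AAV2/2, so no treatment could be compared, and every comparison below is between regions of the same frames. The labels number the frames as biological replicates but tie none to an animal, or to Ctrl eyes or eyes at 2 or 4 weeks. The p-values therefore measure the spread between frames, which may be technical or may hold differences of treatment and time. The labels call the molecule nuclear RNA, whereas the protocol describes whole sections, and mitochondrially encoded genes, whose RNA lies outside the nucleus, took 2.44% to 2.82% of UMIs.

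Malat1 is an abundant RNA of nuclear speckles, the bodies that store splicing factors. Neat1 is the scaffold around which paraspeckles form. Miat, also called Gomafu or Rncr2, is a neuronal RNA that lies in nuclear bodies of its own and binds the splicing factors Qk, Sf1 and Celf3. Snhg11 is the host transcript of a small nucleolar RNA and is found mainly in neurons. Malat1 and the long Neat1 isoform end in a triple helix in place of a poly(A) tail, so levels are set side by side below for 1 RNA across regions and not between RNAs.

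In the mm10 assembly (GRCm38.p6, RefSeq), Malat1 (ENSMUSG00000092341) spans chr19:5795690-5802672 and Neat1 (ENSMUSG00000092274) spans chr19:5824708-5845480, with 22035 bases between them. Miat (ENSMUSG00000097767) spans chr5:112213228-112228948 and Snhg11 (ENSMUSG00000044349) spans chr2:158375713-158386474. RefSeq classes all 4 genes as lncRNA. The RefSeq promoter sequences of Malat1, Miat and Snhg11 (GRCm38.p6, 250 bases before to 50 after the gene start) are printed because Miat and Snhg11 shared their highest region while Malat1 was lower there. They cover chr19:5802623-5802922 on the minus strand, chr5:112228899-112229198 on the minus strand and chr2:158375463-158375762 on the plus strand. Capitals mark the core of the cAMP response element, TGACG, or its reverse complement CGTCA.
Malat1: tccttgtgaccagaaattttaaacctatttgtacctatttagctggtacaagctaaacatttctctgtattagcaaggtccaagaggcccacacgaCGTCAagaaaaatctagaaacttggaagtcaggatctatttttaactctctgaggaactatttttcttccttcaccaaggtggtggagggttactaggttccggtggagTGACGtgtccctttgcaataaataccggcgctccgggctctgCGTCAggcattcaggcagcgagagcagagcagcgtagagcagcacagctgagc
Miat: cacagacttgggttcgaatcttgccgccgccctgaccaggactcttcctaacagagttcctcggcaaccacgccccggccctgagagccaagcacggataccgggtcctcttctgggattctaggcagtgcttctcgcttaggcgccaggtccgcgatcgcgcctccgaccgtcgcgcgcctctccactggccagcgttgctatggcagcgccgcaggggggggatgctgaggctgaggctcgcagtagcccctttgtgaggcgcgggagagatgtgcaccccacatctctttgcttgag
Snhg11: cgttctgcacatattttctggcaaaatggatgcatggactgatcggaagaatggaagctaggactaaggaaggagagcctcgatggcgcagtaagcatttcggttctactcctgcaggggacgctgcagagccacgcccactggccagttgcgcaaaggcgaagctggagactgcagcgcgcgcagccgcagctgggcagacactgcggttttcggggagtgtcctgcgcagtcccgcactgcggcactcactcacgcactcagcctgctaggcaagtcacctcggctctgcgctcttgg
The core occurs 3 times in the Malat1 window and 0 times in those of Miat and Snhg11, and 20.8% of 32851 mouse promoter windows of this length hold it on either strand. The GC box GGGCGG, or CCGCCC on the other strand, occurs 1 time in the Miat window, and 35.7% of all windows hold it. TATAAA and CCAAT, searched on both strands, are in none of the 3 windows, against 13.6% and 37.4% of all windows. The Miat and Snhg11 windows hold 25 and 21 CG dinucleotides, the Malat1 window holds 10, and the median of all windows is 7. These matches are descriptions of the letters and not of bound sites.

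The 4603 spots over tissue held 3522010 UMIs, 674029 to 1066633 per frame, with medians of 430 to 630.5 UMIs per spot. No frame was a copy of another, since chi-square per degree of freedom over genes was 3.53 to 17.2 for the pairs of frames. Frame 4 stood apart, with 12.9 to 17.2 in its pairs against 3.53 to 5.38 among frames 1 to 3, and the cause was not tested. Frames shared 220 to 824 barcodes per pair, since a barcode marks a grid position. Regions were drawn by clustering spots on 159 marker genes that exclude the 4 RNAs, and 1708 spots with fewer than 20 marker UMIs stayed unplaced. Leading genes were ranked by fold over the other clusters and not by count. The photoreceptor region (920 spots) joined a cluster of 578 spots led by Gnat2, Opn1mw and Arr3 and one of 342 spots led by Nr2e3, Pde6b and Rp1. The inner nuclear region (366 spots) was led by Neurod4, Lhx4 and Müller glia genes such as Gpr37. The ganglion region (561 spots) was led by Pou4f1 and Slc17a6, the pigmented region (362 spots) by Lrat and Rdh5, the fibrous region (297 spots) by Comp and Col1a2, and the myelin region (80 spots, none of them in frame 1) by Mobp and Cldn11, genes of the optic nerve's oligodendrocytes. Every region is a mixture. Photoreceptor markers summed to 48193 to 65604 CPM (counts per 1e6 UMIs) in the fibrous region and 23958 to 31950 CPM in the pigmented region, against 67106 to 80493 CPM in the photoreceptor region, and their part in the coat values below was not tested. In all values below, fewer cells of a type and less RNA per cell cannot be told apart.

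Malat1 was seen in more spots than the other 3 RNAs. It had 872, 998, 629 and 966 CPM in frames 1 to 4, a mean of 866 ± 167 CPM (SD, n = 4), from 3053 UMIs in 1243 spots. Frame 3 was the lowest and frame 2 the highest, a ratio of 1.59. By total UMIs Malat1 ranked at position 145 of 17463 genes. The 46 spots with most Malat1 UMIs, each with 8 to 43, held 17.6% of Malat1 UMIs and 1.91% of all UMIs. They were picked by their Malat1 UMIs, so the larger share was built in and does not by itself show concentration. Of these 46 spots, 17 lay in the inner nuclear region, 14 in the photoreceptor region, 6 in the fibrous region and 4 in the ganglion region.

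Snhg11 had 271, 235, 210 and 313 CPM in frames 1 to 4, a mean of 257 ± 44.8 CPM (SD, n = 4), from 891 UMIs in 550 spots. Neat1 was sparse, with 26.8, 32.8, 26.0 and 37.1 CPM (mean 30.7 ± 5.26 CPM, SD, n = 4), from 107 UMIs in 87 spots. Miat had 21.2, 16.9, 30.5 and 40.1 CPM (mean 27.2 ± 10.3 CPM, SD, n = 4), from 91 UMIs in 68 spots. Its highest frame was 2.37 times its lowest, the widest spread of the 4 RNAs between frames. At these counts most positive spots held 1 UMI, in 83.9% of the Neat1-positive spots and 79.4% of the Miat-positive spots, so single spots were not compared.

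**Figure D1:**
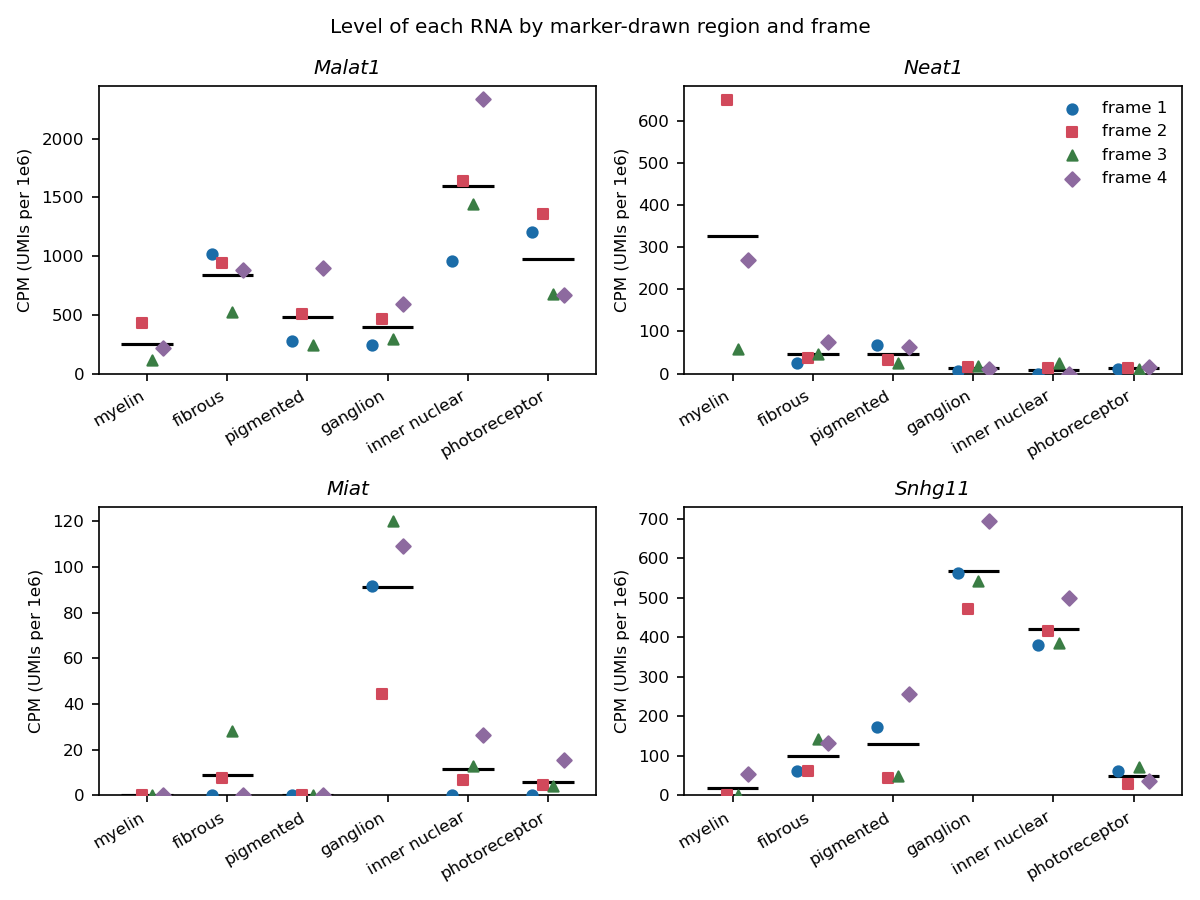
CPM of each RNA (per 1e6 UMIs of the region) in 6 marker-drawn regions, with a point per frame and a bar for the mean over frames. Malat1 is highest in the inner nuclear region (mean 1595 CPM), Neat1 in the myelin region (325 CPM, from 9 UMIs), and Miat and Snhg11 in the ganglion region (91.4 and 568 CPM).

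Across the regions of the neural retina and outer coat, mean Malat1 levels were 1595 ± 571 CPM in the inner nuclear, 976 ± 357 in the photoreceptor, 841 ± 216 in the fibrous, 480 ± 301 in the pigmented and 398 ± 158 in the ganglion region (SD, n = 4). Neighbours in this order overlapped in every case, with the higher region above the next in 3 of 4 frames each time. The inner nuclear region held 20.1% of Malat1 UMIs and 12.5% of all UMIs, whereas the ganglion region held 10.4% of Malat1 UMIs and 22.2% of all UMIs. The photoreceptor region consisted of 2 clusters, and Malat1 did not separate them. It had 954 ± 381 CPM in the one led by Gnat2, Opn1mw and Arr3 and 1003 ± 355 CPM in the one led by Nr2e3 and Pde6b. The cone genes Gnat2, Opn1mw and Arr3 had only 58, 63 and 75 UMIs in the first cluster, against 2057 for Gngt1 and 1478 for Pde6a. The 2 clusters are therefore not a contrast of cones with rods. The unplaced spots had 1390, 1673, 1200 and 1758 CPM of Malat1 in frames 1 to 4, higher than the frame as a whole in every frame. They had a median of 225 UMIs per spot and held 23.7% of Malat1 UMIs.

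Within the retina, Malat1 differed between the inner layers. Malat1 had 247, 464, 292 and 590 CPM in the ganglion region of frames 1 to 4. It had 958, 1637, 1447 and 2336 CPM in the inner nuclear region. The groups did not overlap, and the ganglion value was the lower in every frame. Malat1 was lower in the ganglion region by a log2 fold of -2.03 ± 0.20 (SD of the 4 frames' log2 folds; edgeR quasi-likelihood test with frame as a block, adjusted p = 5.95e-08). In this comparison 15.6% of 2794 genes tested were called, 8.05% being higher and 7.59% lower, and the median log2 fold of all genes was 0.01. The spots were not alike in other respects, with a median of 1163 UMIs in the ganglion region and 957 in the inner nuclear region. Photoreceptor markers summed to 2618 to 4962 CPM in the ganglion region and 11105 to 23336 CPM in the inner nuclear region, and Müller glia markers to 3358 to 7012 and 10999 to 14603 CPM. The part of these markers and of depth in the difference was not tested.

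Snhg11 and Miat were highest in the ganglion region, with Snhg11 spread more widely. Snhg11 had 562, 472, 543 and 693 CPM in the ganglion region of frames 1 to 4, and 380, 416, 384 and 499 CPM in the inner nuclear region. It was higher in the ganglion region in 4 of 4 frames, but frame 4 of the inner nuclear region exceeded frame 2 of the ganglion region. The log2 fold of 0.40 ± 0.16 did not pass the test (edgeR adjusted p = 0.210), and it passed when at least 50 marker UMIs were required (1.01, adjusted p = 0.0163). Together both regions held 615 of the 891 Snhg11 UMIs, and the ganglion region alone held 49.0%.

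Miat had the largest share of its UMIs in 1 region among the 4 RNAs. It had 91.8, 44.4, 120 and 109 CPM in the ganglion region of frames 1 to 4, against 0, 6.71, 12.8 and 26.3 CPM in the inner nuclear region, from 68 and 3 UMIs. The ganglion value was the higher in every frame and the groups did not overlap. The ratio of the pooled levels was 12.8 (95% exact interval 4.21 to 63.8, covering counting error only). The ganglion region held 74.7% of Miat UMIs and 22.2% of all UMIs. Miat did not pass the filter on low counts in any comparison, and in the fit with no such filter its log2 fold here was 3.55 (edgeR adjusted p = 1.73e-04). The pigmented region gave 0 Miat UMIs of 219341, which allows up to 13.7 CPM, and the myelin region 0 of 40662, which allows up to 73.8 CPM. The myelin region is therefore too shallow to set Miat against the 38.9 CPM of the neural retina (ganglion, inner nuclear and photoreceptor regions) in the same frames.

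Neat1 did not separate the inner layers. It had 1, 4, 3 and 2 UMIs in the ganglion region of frames 1 to 4 and 0, 2, 2 and 0 UMIs in the inner nuclear region, a ratio of pooled levels of 1.42 (95% exact interval 0.408 to 6.18). A difference of this size was not detectable at this depth, and Neat1 did not pass the count filter.

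**Figure D2:**
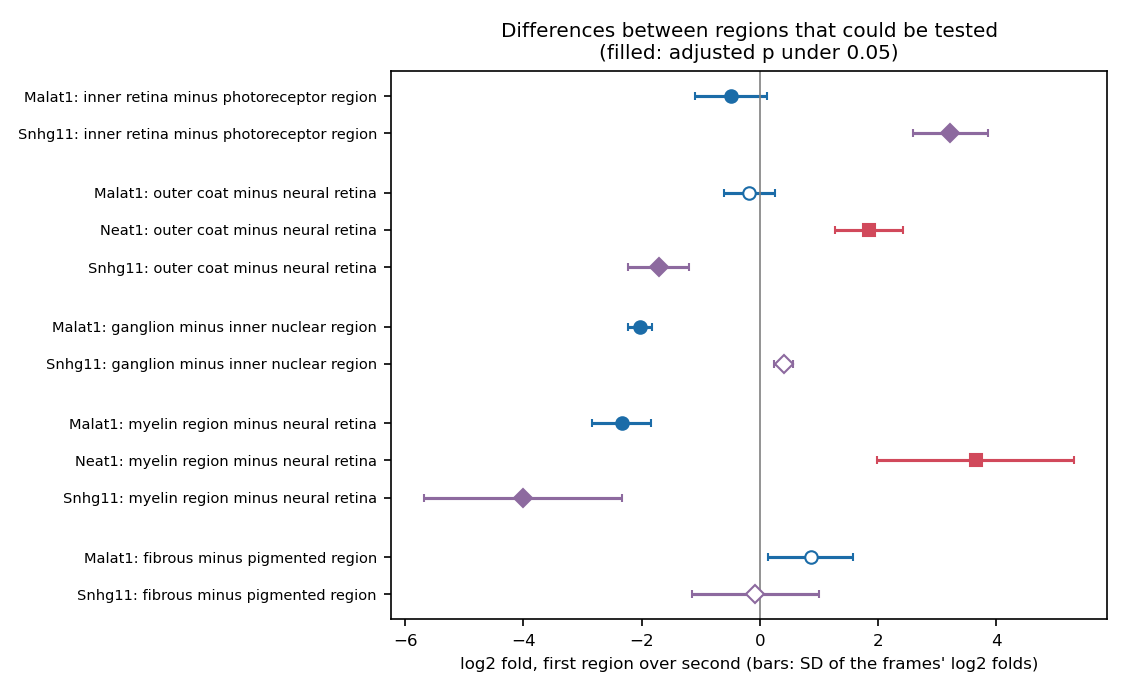
Log2 folds of the RNAs that passed the count filter in each of the 5 comparisons, first region over second, with bars for the SD of the per-frame log2 folds. Filled points passed the edgeR test at an adjusted p of 0.05, among them Malat1 at -2.03 for ganglion minus inner nuclear and Snhg11 at 3.22 for inner retina minus photoreceptor.

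Against the photoreceptor region, the inner retina (inner nuclear plus ganglion regions) had more Snhg11 and less Malat1. Snhg11 had 471, 451, 494 and 660 CPM in the inner retina of frames 1 to 4. It had 60.9, 27.2, 71.1 and 35.6 CPM in the photoreceptor region. The inner retina was far above in every frame, with a log2 fold of 3.22 ± 0.64 (edgeR adjusted p = 1.08e-09). In this comparison 52.4% of 3461 genes tested were called, so a call alone says little about an RNA. Both tested members were called, 27.8% of all genes being higher and 24.6% lower.

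Malat1 had 605, 904, 648 and 890 CPM in the inner retina of frames 1 to 4, and 1202, 1358, 679 and 666 CPM in the photoreceptor region. It was lower in the inner retina in 3 of 4 frames and higher in frame 4, and the groups overlapped. Its log2 fold was -0.49 ± 0.61 (edgeR adjusted p = 0.0224), and the call was lost without frame 1 (log2 fold -0.30, adjusted p = 0.215), without frame 2 (-0.40, adjusted p = 0.152) and in DESeq2 (adjusted p = 0.0516). The log2 fold was larger in size with at least 50 marker UMIs (-0.90, edgeR adjusted p = 1.27e-03) and with 10 components (-0.65, adjusted p = 2.18e-03). The inner retina pools the inner nuclear and ganglion regions, which lay on opposite sides of the photoreceptor mean for Malat1. Of 13 mitochondrially encoded genes, 7 were lower in the inner retina and 0 higher (edgeR), beside 24.6% of all genes lower and 27.8% higher. The median log2 fold was -0.38 for the list and 0.02 for all genes, and DESeq2 called 6 of the 13. The Malat1 log2 fold was -0.48 with these genes left out.

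Miat had 45.6, 30.2, 87.0 and 94.9 CPM in the inner retina of frames 1 to 4, and 0, 4.53, 3.95 and 15.3 CPM in the photoreceptor region, from 71 and 5 UMIs. The groups did not overlap. The ratio of pooled levels was 10.1 (95% exact interval 4.13 to 32.02), and without the count filter the log2 fold was 3.26 (edgeR adjusted p = 9.12e-07). Neat1 had 14 UMIs in the inner retina and 11 in the photoreceptor region, a ratio of pooled levels of 0.904 (95% exact interval 0.381 to 2.20), so a difference was not detectable at this depth.

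Photoreceptor signal was on both sides when the outer coat (pigmented plus fibrous regions) was compared with the neural retina. Photoreceptor markers summed to 40223 to 57975 CPM (mean 48290) in the coat and 31207 to 40977 CPM (mean 35637) in the neural retina. Fibrous markers summed to 2882 to 4221 and 278 to 429 CPM, and pigmented markers to 6880 to 16407 and 857 to 1460 CPM. The part of this mixture in the coat differences was not tested. Neat1 set the coat apart from the neural retina. It had 34.9, 35.7, 37.3 and 72.6 CPM in the coat of frames 1 to 4. It had 5.48, 14.6, 15.8 and 11.97 CPM in the neural retina. The coat was higher in every frame and the groups did not overlap. The log2 fold was 1.85 ± 0.58 (edgeR adjusted p = 0.0213), from 25 UMIs on either side, and 17% of 4366 genes tested were called, 7.15% being higher and 9.89% lower. The call was lost without frame 1 (adjusted p = 0.0628), without frame 4 (0.0551) and with no count filter (0.0547). Within the coat, Neat1 had 46.7 ± 20.8 CPM in the fibrous region and 47.3 ± 22.2 CPM in the pigmented region (SD, n = 4), a ratio of pooled levels of 1.15 (95% exact interval 0.471 to 3.08). A further region of 167 spots, led by a mix of immunoglobulin genes (Jchain, Igkc), melanocyte genes (Dct, Mlana) and Fbn1, had 78.9, 153, 59.9 and 277 CPM of Neat1, above its neural retina level in every frame. It held 22 of the 107 Neat1 UMIs, or 20.6%, and 5.23% of all UMIs. With it added to the coat, the Neat1 log2 fold was 2.44 (edgeR adjusted p = 1.09e-04).

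Snhg11 was lower in the coat, with 83.7, 53.5, 101 and 160 CPM in frames 1 to 4, against 323, 299, 282 and 366 CPM in the neural retina. The groups did not overlap, and the log2 fold was -1.71 ± 0.52 (edgeR adjusted p = 8.03e-06). The inner nuclear and ganglion regions held 615 of the 658 Snhg11 UMIs of the neural retina. The photoreceptor region alone had 60.9, 27.2, 71.1 and 35.6 CPM in frames 1 to 4. The coat was above it in every frame, though these groups overlapped, and the coat was not tested against it. The fibrous region had 98.8 ± 43.6 CPM and the pigmented region 130 ± 103 CPM of Snhg11 (SD, n = 4), and this difference did not pass the test (log2 fold -0.08 ± 1.08, edgeR adjusted p = 0.955). Miat had 4 UMIs in the coat and 76 in the neural retina, a ratio of pooled levels of 0.176 (95% exact interval 0.0468 to 0.470). In the fit with no count filter its log2 fold was -2.51 (edgeR adjusted p = 0.0132). Of the 76 UMIs, 68 lay in the ganglion region. Pooled Miat levels were 6.41 CPM in the coat and 5.76 CPM in the photoreceptor region, from 4 and 5 UMIs.

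Malat1 had 865, 758, 405 and 885 CPM in the coat of frames 1 to 4, and 820, 1067, 664 and 785 CPM in the neural retina. It was higher in the coat in frames 1 and 4 and lower in frames 2 and 3, and the log2 fold of -0.17 ± 0.43 did not pass the test (edgeR adjusted p = 0.494). Its sign turned when spots were assigned by likelihood (0.22) and when at least 50 marker UMIs were required (0.01). Within the coat, Malat1 had 1016, 939, 528 and 882 CPM in the fibrous region and 274, 505, 246 and 896 CPM in the pigmented region. The fibrous value was clearly the higher in frames 1 to 3 and close to the pigmented value in frame 4, and the log2 fold of 0.86 ± 0.73 did not pass the test (edgeR adjusted p = 0.0727), while 7.67% of 1265 genes tested were called, 1.98% being higher and 5.69% lower. It passed without frame 4 (log2 fold 1.07, adjusted p = 0.0116) and with regions assigned by likelihood (1.79, adjusted p = 8.94e-08), and was smaller and not called with at least 50 marker UMIs (0.47, adjusted p = 0.443) and with 10 components (0.52, adjusted p = 0.0965). The photoreceptor markers, higher in the fibrous region as given above, differ along with Malat1.

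The myelin region, present in frames 2 to 4, was shallow, with 40662 UMIs and a median of 391.5 UMIs per spot. Neat1 had 3, 1 and 5 UMIs there in frames 2 to 4, or 649, 57.4 and 269 CPM, against 14.6, 15.8 and 11.97 CPM in the neural retina. It was higher in each of the 3 frames, by 3.65 ± 1.68 on the log2 scale (edgeR adjusted p = 3.11e-05). Malat1 had 2, 2 and 4 UMIs there, or 433, 115 and 215 CPM, against 1067, 664 and 785 CPM in the neural retina. It was lower in each frame, by a log2 fold of -2.34 ± 0.50 (edgeR adjusted p = 0.0400). Snhg11 had 1 UMI in the myelin region and 481 in the neural retina, a ratio of pooled levels of 0.0788 (95% exact interval 0.00199 to 0.441), and it was called lower (edgeR adjusted p = 0.0426). These 3 calls stand beside 8.85% of 3117 genes called, 3.91% being higher and 4.94% lower, and a median log2 fold of -1.20 over all genes tested. The calls were made against 0, and no RNA was tested against that median. Neat1 (standard error 0.71) lay above the median, and Malat1 (0.79) and Snhg11 (1.37) lay below it. The Malat1 value rests on few UMIs and a wide error, so it is not shown to be lower than genes in general. Of the genes called, 44.2% were higher in the main scaling (TMM) and 33.5% with RLE size factors. Without frame 4, 3 genes were called in all and none of the RNAs among them, and without frame 3, 50 genes were called, Neat1 among them (adjusted p = 1.57e-03). The Neat1 call was also lost with no count filter (log2 fold 2.85, edgeR adjusted p = 0.133), and those of Malat1 (adjusted p = 0.0566) and Snhg11 (adjusted p = 0.0511) with regions assigned by likelihood. Mitochondrially encoded genes took 4.48% of UMIs in the myelin region and 2.16% to 2.80% in the 5 regions above, and their part was not tested.

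**Figure D3:**
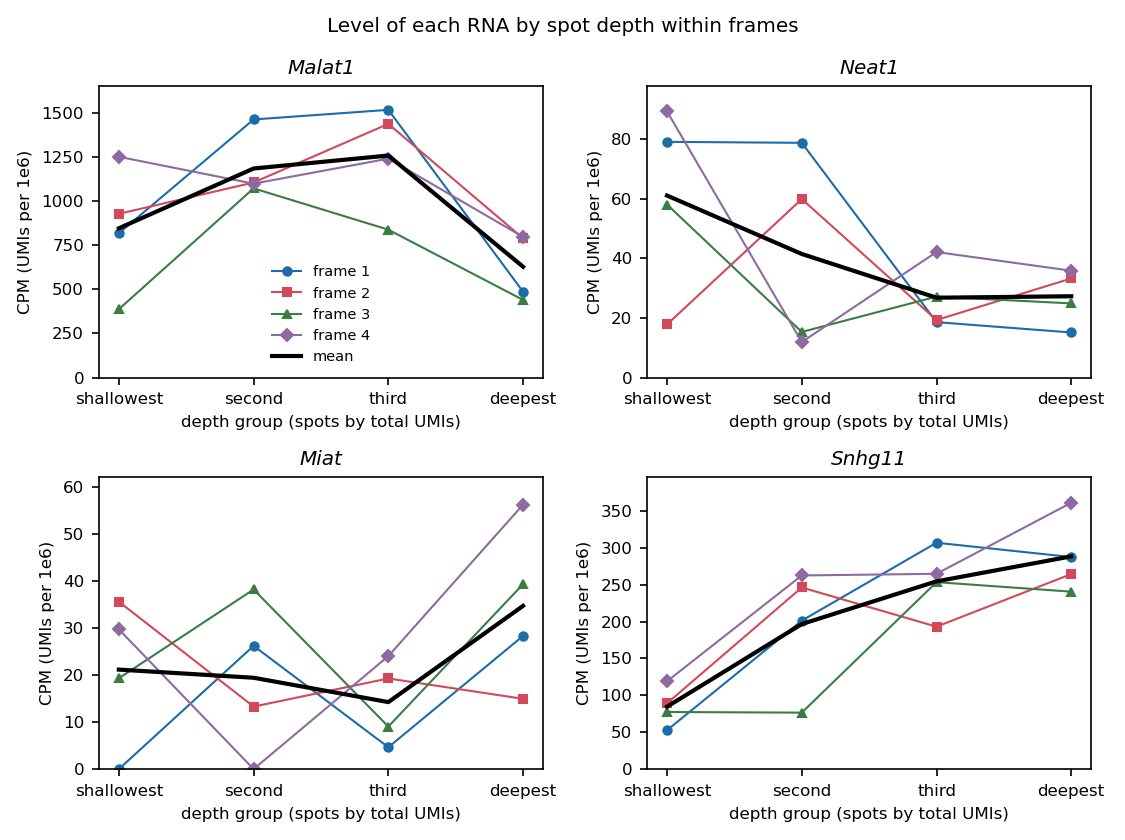
CPM of each RNA in 4 depth groups of each frame's spots, of equal size and ordered by the spot's total UMIs without the 4 RNAs, with a coloured line per frame and a black line for the mean. Snhg11 is lowest in the shallowest spots (mean 84.6 CPM) and Malat1 is lowest in the deepest (mean 628 CPM).

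Spot depth was related to the RNAs in different ways. The spots of each frame were split by total UMIs into 4 depth groups of equal size. From the shallowest to the deepest group, Malat1 averaged 845 ± 357, 1184 ± 186, 1257 ± 303 and 628 ± 191 CPM (SD, n = 4 frames). In every frame the deepest group was below both middle groups. The shallowest group was above the deepest in 3 of 4 frames, frame 3 having 387 and 440 CPM. Snhg11 averaged 84.6 ± 27.5, 197 ± 84.2, 255 ± 47.0 and 288 ± 52.1 CPM, with the deepest group above the shallowest in 4 of 4 frames. Neat1 averaged 61.1, 41.5, 26.8 and 27.3 CPM, from 10, 21, 22 and 54 UMIs, and its shallowest group was above the deepest in 3 of 4 frames. Miat averaged 21.2, 19.5, 14.3 and 34.8 CPM, from 4, 10, 12 and 65 UMIs. Spearman's rho between a spot's total and its CPM ran over the 4 frames from 0.19 to 0.22 for Malat1, from 0.28 to 0.31 for Snhg11, from 0.03 to 0.12 for Neat1 and from 0.07 to 0.17 for Miat, over 1056 to 1243 spots per frame. These are descriptions, since spots share their library and a shallow spot often holds none of an RNA, so that its CPM is 0.

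The depth groups differed in where their spots lay. Unplaced spots made up 85.8% of the shallowest group and 1.48% of the deepest, whereas the ganglion region made up 0.694% and 29.0%. Within regions the relation of Malat1 to depth was therefore read again. In the fibrous region Malat1 averaged 1400 ± 364, 1443 ± 790, 743 ± 334 and 589 ± 295 CPM in depth groups from the shallowest to the deepest, and the shallowest was above the deepest in 4 of 4 frames, by 1.34 to 4.48 times. In the inner nuclear region it averaged 1987 ± 501, 2527 ± 623, 2055 ± 1028 and 955 ± 696 CPM, with the shallowest group above the deepest in 3 of 4 frames and frame 4 the exception. In the ganglion region it averaged 542 ± 225, 516 ± 110, 413 ± 266 and 312 ± 202 CPM, and the shallowest was above the deepest in 3 of 4 frames, frame 4 having 249 and 523 CPM. The pigmented region ran the other way in 3 of 4 frames, with means of 485 ± 468, 166 ± 193, 467 ± 378 and 597 ± 495 CPM, and the shallowest group was above the deepest in 1 frame. Its groups held only 8, 11, 19 and 51 Malat1 UMIs over the 4 frames, so this order rests on few molecules. The photoreceptor region showed no such slope in its means, with 962 ± 448, 1121 ± 505, 1107 ± 447 and 848 ± 282 CPM. Snhg11 in the ganglion region averaged 377 ± 184, 585 ± 249, 538 ± 104 and 625 ± 122 CPM, with the deepest group above the shallowest in 4 of 4 frames. In the inner nuclear region Snhg11 averaged 308 ± 172 CPM in the shallowest and 380 ± 112 CPM in the deepest group, and the shallowest was above the deepest in 1 of 4 frames.

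**Figure D4:**
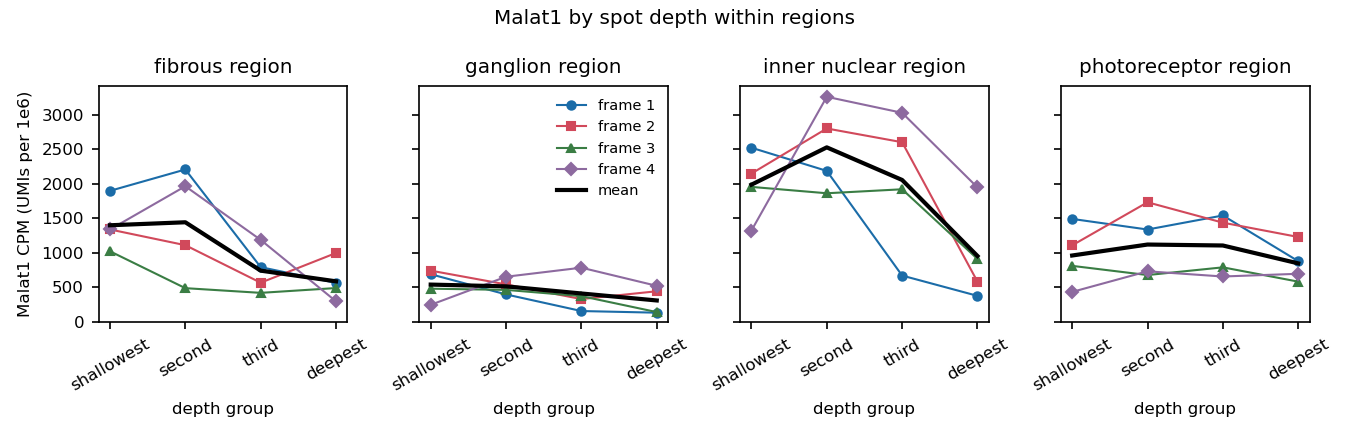
Malat1 CPM in 4 depth groups of the spots of each of 4 regions, ordered by the spot's total UMIs within each frame and region, with a coloured line per frame and a black line for the mean. Means are lower in the deepest group than in the shallowest in the fibrous (589 CPM), ganglion (312 CPM) and inner nuclear (955 CPM) regions, and the ganglion means lie below the inner nuclear means in every group.

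Genes with profiles most like each RNA were sought by Pearson's correlation of log2(CPM + 10) over 20 sums (5 regions in 4 frames), among 2625 genes with at least 200 UMIs outside the marker panel. These sums share libraries and regions, so the values are descriptions. For Malat1 they were Car2, a carbonic anhydrase (r = 0.78), Arglu1, a nuclear protein that takes part in splicing (r = 0.77), and Ptma, which encodes a nuclear protein (r = 0.74). Arglu1 averaged 221 CPM in the ganglion region and 387 CPM in the inner nuclear region. For Neat1 they were Aebp1, a matrix-associated gene (r = 0.80), Rpl28 (r = 0.78) and Calr, an endoplasmic reticulum chaperone (r = 0.77). For Miat they were Clstn2, a neuronal calsyntenin (r = 0.87), Rab6b (r = 0.86) and Calb2, the calcium-binding protein calretinin (r = 0.85), which averaged 722 CPM in the ganglion region and 168 CPM in the inner nuclear region. For Snhg11 they were the imprinted genes Ndn (r = 0.95) and Nap1l5 (r = 0.94), and Gprasp2 (r = 0.93). Among the 4 RNAs, Miat and Snhg11 had r = 0.63, while Malat1 had -0.25 with Neat1, -0.31 with Miat and -0.03 with Snhg11.

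Other long noncoding RNAs were read from a list of 51, of which 48 were in the matrices. In the inner retina 4 of 10 tested were higher and 2 lower than in the photoreceptor region, beside 27.8% of all genes higher and 24.6% lower, with a list median log2 fold of 0.32 and 0.02 for all genes. Meg3, an imprinted maternally expressed RNA, was higher like Snhg11 (log2 fold 3.20 ± 0.50, edgeR adjusted p = 1.19e-08), as was 2900097C17Rik, the mouse Norad gene (1.99 ± 0.21, adjusted p = 5.18e-08). In the coat 1 of 15 was higher, the antisense RNA Vax2os (1.57 ± 0.82, edgeR adjusted p = 1.87e-03), and 3 were lower, Meg3 among them (-1.95 ± 0.65, adjusted p = 4.99e-05), beside 7.15% of all genes higher and 9.89% lower, with medians of -0.02 for the list and -0.04 for all genes. In the ganglion against the inner nuclear region 1 of 8 was higher, 2900097C17Rik (0.69 ± 0.43, edgeR adjusted p = 0.0440), and 1 was lower in the direction of Malat1, Mir124a-1hg, a host of the neuronal miR-124 (-1.71 ± 0.53, adjusted p = 2.73e-03), beside 8.05% of all genes higher and 7.59% lower, with medians of 0.31 and 0.01. In the myelin region 0 of 6 were higher and 1 lower, Meg3 with 0 UMIs against 312 in the neural retina, beside 4.94% of all genes lower, with medians of -1.60 and -1.20. Between the fibrous and pigmented regions 0 of 2 passed in edgeR and DESeq2, none with an unadjusted p under 0.05, with medians of 0.30 and 0.02.

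Genes for proteins of the nuclear bodies that hold these RNAs were read from lists too. Of 18 nuclear speckle genes, whose proteins share a body with Malat1, 13 were tested between the ganglion and inner nuclear regions, 2 were lower and 0 higher, beside 7.59% of all genes lower, with medians of -0.52 for the list and 0.01 for all genes. Neither passed in DESeq2, which called 0, and 4 of the 13 had an unadjusted p under 0.05. Those 2 were the splicing factors Srsf2 (log2 fold -0.86 ± 0.37, edgeR adjusted p = 0.0322) and Srsf1 (-0.90 ± 0.26, adjusted p = 0.0393). In the inner retina against the photoreceptor region 1 of 16 was lower, the speckle scaffold Son (-1.12 ± 0.15, edgeR adjusted p = 7.77e-04), beside 24.6% of all genes lower, with medians of -0.09 and 0.02. In the coat, myelin and fibrous comparisons 0 of 17, 0 of 14 and 0 of 7 speckle genes passed in edgeR and in DESeq2, and 0, 2 and 1 had an unadjusted p under 0.05.

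Of 16 paraspeckle genes, whose proteins assemble on Neat1, 13 were tested in the coat, where 1 was higher and 1 lower, beside 7.15% and 9.89% of all genes, with medians of -0.09 for the list and -0.04 for all genes. The gene that was higher was Ewsr1 (log2 fold 0.28 ± 0.19, edgeR adjusted p = 0.0460). The gene that was lower was Matr3, a nuclear matrix protein (log2 fold -1.02 ± 0.47, edgeR adjusted p = 8.98e-03). In the inner retina 4 of 12 were lower and 0 higher, beside 24.6% of all genes lower, with medians of -0.36 and 0.02, among them the RNA-binding protein Tardbp (-0.90 ± 0.13, edgeR adjusted p = 2.97e-06). DESeq2 called 2 of the 12. In the ganglion against the inner nuclear region 1 of 12 was lower, the chromatin remodeller Smarca4 (-1.18 ± 0.73, edgeR adjusted p = 0.0387), beside 7.59% of all genes lower, with medians of -0.29 and 0.01. DESeq2 called 0 of these 12, with an adjusted p of 0.104 for Smarca4. In the myelin region 1 of 11 was lower, Tardbp (-2.36 ± 0.67, edgeR adjusted p = 0.0139), beside 4.94% of all genes lower, with medians of -1.23 and -1.20, and 0 of 7 passed between the fibrous and pigmented regions in edgeR and DESeq2, none with an unadjusted p under 0.05.

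Of 6 splicing factors bound or linked to Miat, 5 were tested in the inner retina and 1 was higher, Qk (log2 fold 1.27 ± 0.39, edgeR adjusted p = 3.29e-03), beside 27.8% of all genes higher, with medians of 0.11 for the list and 0.02 for all genes. Between the ganglion and inner nuclear regions 1 of 5 was lower, Srsf1 as above, and 0 were higher, beside 7.59% of all genes lower, with medians of -0.51 and 0.01, and DESeq2 called 0. In the myelin region 1 of 5 was higher and 1 lower, beside 3.91% of all genes higher and 4.94% lower, with medians of -1.64 and -1.20. Qk, a gene known for its role in oligodendrocytes, was higher (3.06 ± 0.72, edgeR adjusted p = 3.46e-03). Celf2 was lower, with 1 UMI against 616 in the neural retina (edgeR adjusted p = 0.0221). In the coat 0 of 5 and between the fibrous and pigmented regions 0 of 4 passed in edgeR and DESeq2, none with an unadjusted p under 0.05.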

How the data were processed

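The deposited matrices hold counts of UMIs per gene and spot, which the authors made with Space Ranger 2.0.0 (per the file headers) on mm10 (per the submitters' processing notes). All spots over tissue in the 4 frames were used. Spots with at least 20 UMIs of 159 marker genes were scaled to 10000, log-transformed, reduced to 15 principal components and partitioned with Leiden at resolution 0.6 (15 neighbours, scanpy 1.11.5). The 15 components were chosen after the regions' leading genes were seen. A region took the class of most of its 10 leading markers, at least 3.

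UMIs were summed per frame and region (at least 10 spots, at least 3 frames). Marker genes were left out of tests, though regions were drawn and tested on the same spots. The edgeR 4.0.16 quasi-likelihood test (robust, TMM, filterByExpr with a minimum count of 10, frame as a block, tested on simulated data) was adjusted by Benjamini-Hochberg with a limit of 0.05. Paired regions lie on 1 frame, hence the block. The paired deviations correlated weakly, at 0.02 to 0.14. The ± beside a log2 fold is the SD of the frames' log2 folds with a prior count of 2. Limits for 0 counts use 3 UMIs, and intervals are exact at 95%. Named genes were the 4 RNAs, the 3 most alike each, and up to 3 per list and comparison with the lowest p; most are given. The members and lists were chosen with earlier results of these data known. Alternatives were RLE, DESeq2 1.42.0, no count filter, no block, each frame left out, other region settings and no mitochondrial genes.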

Additional observations from a re-analysis of the deposited data

Results flagged for a closer look

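Of 42 sets of 4 frames examined for a frame standing apart from the rest, 3 had one by Dixon's test at 95%. The nominal rate of about 1 of 20 sets assumes continuous values and separate sets. It does not hold here, since a set with UMIs in 1 frame alone is always flagged and some regions share spots. Neat1 in the outer coat stood at 72.6 CPM in frame 4, from 5 UMIs, against 34.9 to 37.3 CPM in the other frames. Neat1 in the muscle-gene region stood at 435 CPM in frame 1, from 4 UMIs in 1 spot, against 0 in the other frames. Miat in the region led by immunoglobulin and melanocyte genes stood at 55.3 CPM in frame 4, from 1 UMI, against 0 in the other frames. All 3 rest on 5 UMIs or fewer.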

How the results depend on the processing

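Of 289 values recomputed under an alternative, 247 kept their direction and side of the limit or, for values with no test, stayed within their counting interval or moved by less than the SD between frames. The untested Neat1 log2 ratios changed sign within their intervals. In the inner retina the ratio was -0.15, and 0.60 with 50 marker UMIs, 0.15 without frame 1 and 0.0094 without frame 4. In the ganglion comparison it was 0.50, and -0.34 with 50 marker UMIs, -0.071 with likelihood regions and -0.022 without frame 1. In the fibrous comparison it was 0.20, and -0.34 with likelihood regions and -0.11 without frame 3. Malat1 lower in the ganglion than in the inner nuclear region passed under every alternative run. So did Snhg11 higher in the inner retina and Snhg11 lower in the coat than in the pooled neural retina. Malat1 in the inner retina was not called in DESeq2 (-0.49), and its log2 fold was -0.71 to -0.30 with a frame left out. Malat1 in the coat turned sign with likelihood regions (0.22) and with 50 marker UMIs (0.0071), uncalled as before. Neat1 in the coat was not called with no count filter (1.70), was 1.67 to 2.09 with a frame left out, and had no value where regions were redrawn. Snhg11, ganglion minus inner nuclear, was called with 50 marker UMIs (1.01). In the myelin region, leaving out a frame gave -2.72 to -2.12 for Malat1, 3.05 to 4.37 for Neat1 and -9.40 to -3.38 for Snhg11. There the call was lost with likelihood regions for Malat1 (-2.24) and Snhg11 (-3.96), and with no count filter for Neat1 (2.85). Malat1, fibrous minus pigmented, was called with likelihood regions (1.79) and was 0.66 to 1.07 with a frame left out. Snhg11 there turned to 0.13 with no count filter, 0.017 without the block, 0.41 without frame 1 and 0.011 at Leiden resolution 1, and was -1.70 with 50 marker UMIs (edgeR adjusted p = 0.109), not called in any of these. Miat was called once the filter was dropped, at 3.26 (inner retina), -2.51 (coat) and 3.55 (ganglion). The causes were not tested.

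Without the frame as a block (no pairing), 725 genes were called in the myelin comparison against 276 with it, and 1764, 678, 437 and 116 in the inner retina, coat, ganglion and fibrous comparisons against 1814, 744, 437 and 97. It changed no call of the 4 RNAs. Malat1, for example, was -1.99 in the ganglion comparison without it. Other gene counts that moved by over 1.5 times were 483 in DESeq2 and 393 with 50 marker UMIs in the coat against 744, 286 in DESeq2 in the ganglion comparison against 437, and in the fibrous comparison 47 with no count filter, 191 with likelihood regions and 343 with 10 components (an alternative chosen after seeing the data, as was adding the immunoglobulin region to the coat) against 97. With a frame left out the counts were 448 to 801 (coat), 257 to 400 (ganglion), 3 to 324 (myelin) and 35 to 161 (fibrous). The myelin comparison could not be run with 50 marker UMIs, and an RNA that failed the count filter under a setting has no value there. Depth limits Neat1 and Miat most, with 107 and 91 UMIs.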
